A study of Mus musculus with 23 samples.

Results

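The proteasome subunit genes and the genes of the ubiquitin-conjugating (E2) enzymes were described in mouse spinal cord lesions sampled 14 days after injury. The genes were taken from the deposited gene tables by name alone: every symbol that began with Psm, a letter from a to g and a digit, or with Ube2. This gave 68 genes, 43 Psm and 25 Ube2, among 9480 gene symbols listed in all. All 68 were among the 9363 symbols listed for the HA fraction and 40 of them, 23 Psm and 17 Ube2, were among the 4898 listed for the FT fraction. Psmb9 and Psme2 were not among the listed genes and were not analysed here.

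The mice carried mGFAP-Cre and RiboTag, so that an HA epitope sat on the ribosomes of cells in which the mouse Gfap promoter had driven Cre, a promoter used to reach astrocytes. The labels give the genotype of every library as wild type and the mice as young adults. All mice had a severe crush of the spinal cord at thoracic level 10, and the central 3 mm of the lesion was homogenised at day 14. RNA bound to tagged ribosomes was precipitated through the tag (the HA fraction), and the RNA that stayed behind, from the remaining cells and any untagged ribosomes, is the flow-through (FT). Injured mice had received a hydrogel depot with growth factors at day 2 (3 HA and 5 FT libraries), a depot labelled hydrogel CT at day 2 (3 HA and 4 FT libraries) or no depot (SCI only, 4 HA and 4 FT libraries). The series title names the growth factors as FGF and EGF, whereas the column heads of the deposited tables name BDNF and NT3 for these libraries, so the agent is called growth factors here. The libraries carry title numbers from 1645 to 1762 in both hydrogel groups and from 9596 to 9935 in SCI only, so a depot and a set of numbers cannot be told apart. The labels do not state that each number is a separate mouse, and p-values then measure only the spread between these libraries.

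The proteasome degrades proteins that carry ubiquitin chains. Its barrel, the core particle, is built of outer alpha rings and inner beta rings, and the catalytic sites lie on the beta subunits Psmb5, Psmb6 and Psmb7, which Psmb8, Psmb9 and Psmb10 replace in the immunoproteasome. The regulatory particle caps the barrel: an ATPase ring (the Psmc genes) unfolds substrates, and non-ATPase subunits (most Psmd genes) bind and remove the ubiquitin chain. E2 enzymes take ubiquitin from an E1 enzyme and, with E3 ligases, pass it to substrates; a few members of the Ube2 family carry other modifiers instead, NEDD8 (Ube2m, Ube2f) or ISG15 (Ube2l6).

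Depth set much of what could be seen. Counts outside loci known to collect ribosomal RNA reads ran from 641378 to 2117234 in growth factor HA libraries, from 3412056 to 6518495 in hydrogel CT HA libraries and from 718546 to 1294389 in SCI only HA libraries. In FT they ran from 3284 to 119843 with growth factors, from 4531 to 43399 with hydrogel CT and from 71215 to 349734 in SCI only. The 68 genes together had 2171 to 10000, 17175 to 35332 and 1127 to 4109 counts in the HA libraries of those groups in the same order. In FT the 40 listed genes together had 14 to 1155 counts with growth factors, 21 to 281 with hydrogel CT and 128 to 1307 in SCI only. The single growth factor FT library with 1155 was number 1732, and the other 4 had 14 to 60. A gene of a hydrogel FT library therefore often rests on fewer than 10 reads.

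HA against FT asked which of these genes were richer in RNA on tagged ribosomes than in the remaining RNA of the same tissue. Psmb4, Psmb5 and Psmb1, all beta-ring subunits, and the E2 gene Ube2h were higher in HA. No gene of either family was called lower, against 6.51% of all genes. The fit used the 20 libraries of the 10 title numbers present in both fractions, with treatment as a covariate (edgeR quasi-likelihood test, p-values adjusted by Benjamini-Hochberg over 4747 genes, threshold 0.05). The 4 genes were 10.0% of the 40 compared, against 19.2% of all genes called in either direction and 12.7% called higher, so the share called was not above that of all genes. In none of the 40 did the fractions fail to overlap, against 1.66% of all genes. In bulk RNA, fewer cells of a type and less RNA per cell cannot be told apart.

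Start regions are shown for the called genes for which a RefSeq window (assembly GRCm38.p6) was at hand, and none was at hand for Psmb1. They are Psmb4 at chr3:94886909-94887208, Psmb5 at chr14:54617946-54618245 and Ube2h at chr6:30304490-30304789, all on the minus strand and printed 5′ to 3′ along the gene. Capitals mark the motifs found in each: TATAAA on either strand in Psmb4, the antioxidant response element core TGACNNNGC in Psmb5 and the GC box GGGCGG, or its complement, in Ube2h.
Psmb4: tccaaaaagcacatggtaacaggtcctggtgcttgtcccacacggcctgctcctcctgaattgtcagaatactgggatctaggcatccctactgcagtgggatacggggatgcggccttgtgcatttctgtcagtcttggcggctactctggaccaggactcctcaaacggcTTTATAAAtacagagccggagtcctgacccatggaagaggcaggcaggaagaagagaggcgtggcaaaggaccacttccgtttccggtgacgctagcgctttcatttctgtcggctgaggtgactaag
Psmb5: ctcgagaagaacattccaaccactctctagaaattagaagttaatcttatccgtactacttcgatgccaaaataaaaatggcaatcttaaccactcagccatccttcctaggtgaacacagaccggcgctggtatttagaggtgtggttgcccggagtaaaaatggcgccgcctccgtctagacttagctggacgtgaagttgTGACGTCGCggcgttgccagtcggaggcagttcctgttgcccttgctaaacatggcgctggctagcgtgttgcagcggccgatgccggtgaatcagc
Ube2h: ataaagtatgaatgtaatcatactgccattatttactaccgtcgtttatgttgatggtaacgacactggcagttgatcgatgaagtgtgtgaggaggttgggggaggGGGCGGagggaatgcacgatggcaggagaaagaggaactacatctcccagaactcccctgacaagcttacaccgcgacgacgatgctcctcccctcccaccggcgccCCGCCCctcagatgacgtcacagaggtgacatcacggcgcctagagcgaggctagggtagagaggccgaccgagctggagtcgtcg

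The 3 windows printed hold none of the 5 motifs searched, on both strands, in common. Ube2h has 2 windows in RefSeq, for different starts, and TATAAA, which Psmb4 has, is in the one not printed. The match in Psmb5 began at position -47 from the annotated start, and those in Ube2h at -143 and -36. At least 1 window of 300 bases was at hand for 55 of the 68 genes, 36 Psm and 19 Ube2, and 8 of them had more than 1. A gene was counted if any of its windows held the motif. The GC box was found for 100% of the 19 Ube2 genes and 55.6% of the 36 Psm genes, against 70% of genes listed in HA and 38.2% of all 27025 genes with a window. The ETS site CCGGAAG was found for 38.9% of Psm and 26.3% of Ube2 genes, against 19.4% of listed genes and 9.93% of all. TGACNNNGC was found for 16.7% of Psm and 21.1% of Ube2 genes, against 16.3% of listed genes and 14% of all. CCAAT was found for 33.3% of Psm and 21.1% of Ube2 genes, against 41.9% of listed genes and 41.1% of all. TATAAA was found for 11.1% of Psm and 10.5% of Ube2 genes, against 8.01% of listed genes and 15.7% of all. A match is a run of letters and not a shown binding site.

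Psmb4, a non-catalytic beta-ring subunit (chromosome 3, 94884093 to 94886961, minus strand), ranged from 10.9 to 64.1 CPM (counts scaled to a common library size) in HA with a median of 28.5, against 3.45 to 20.4 CPM in FT with a median of 8.01. The HA library was above the FT library of its own number in 9 of 10 numbers, and only number 1732 ran the other way, with 11.5 CPM in HA and 20.4 CPM in FT. The ranges of the fractions overlapped. The log2 difference, HA minus FT, was 1.89 (SE 0.47, edgeR adjusted p = 0.00377). Of its HA reads 2934 fell on a protein-coding transcript and 139 on a transcript annotated with a retained intron, which is not listed for FT. With only the 4869 transcripts listed in both tables its log2 difference was 1.83 (edgeR adjusted p = 0.00657), and the same 4 genes were called. Behind the FT values of the 6 hydrogel libraries stood 1, 2, 1, 2, 1 and 33 reads, the last in number 1732, and behind those of SCI only 24, 9, 12 and 6.

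Psmb5, which carries the chymotrypsin-like site of the constitutive proteasome (chromosome 14, 54614119 to 54618022, minus strand), had 8.36 to 60.5 CPM in HA, median 16.5, and 0.00 to 13.6 CPM in FT, median 8.82. Its log2 difference was 1.57 (SE 0.52, edgeR adjusted p = 0.0282), and the ranges overlapped. The microRNA gene Mir686 lies inside Psmb5 on the same strand. Psmb1, another non-catalytic beta-ring subunit (chromosome 17, 15475021 to 15499751, minus strand), had 21.4 to 285 CPM in HA, median 37.2, and 0.00 to 29.6 CPM in FT, median 24.0. Its log2 difference was 1.43 (SE 0.45, edgeR adjusted p = 0.0221). The highest HA value was number 1732 again, and without that library the next was 77.2 CPM in number 1685.

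Ube2h (chromosome 6, 30211289 to 30304539, minus strand), an E2 that works with the multi-subunit CTLH ligase, had the evenest HA values of the 4, from 15.9 to 45.8 CPM with a median of 27.6, against 0.00 to 29.0 CPM in FT with a median of 12.7. Its log2 difference was 1.26 (SE 0.44, edgeR adjusted p = 0.0380). Psmb1, Psmb5 and Ube2h were each higher in HA in 9 of 10 numbers. With the title number as a replicate block, the 3 beta-ring genes were called and Ube2h was not (log2 difference 1.26, edgeR adjusted p = 0.0587).

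**Figure D1:**
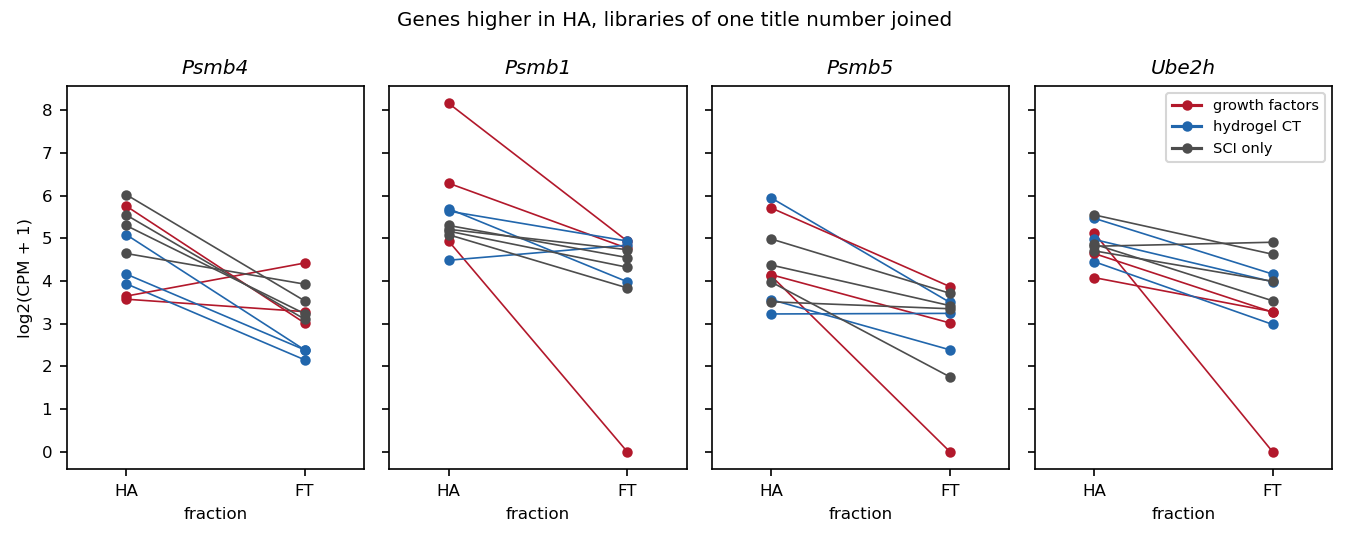
Level of the 4 called genes as log2(CPM + 1) in HA (left) and FT (right); each line joins the HA and FT library of one title number, coloured by treatment. In each panel 9 of 10 lines fall towards FT, and the ranges of the fractions overlap.

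The calls did not hold equally under other choices. Psmb4 was called without each number in turn. Psmb5 was lost without number 1724 or 9843, Psmb1 without 1732 or 1759, and Ube2h without any 1 of 1687, 1724, 1759, 1762, 9596, 9874 and 9935. With only genes of at least 5 CPM on average, Psmb4 alone was called. In the SCI only numbers by themselves the log2 differences were 1.00 for Psmb5, 0.71 for Psmb1 and 0.58 for Ube2h (edgeR adjusted p = 0.349, 0.347 and 0.516), and Psmb4 alone was called. In the hydrogel numbers by themselves they were 1.65 for Psmb4, 1.81 for Psmb5, 1.77 for Psmb1 and 1.65 for Ube2h, none called (edgeR adjusted p from 0.0999 to 0.210). The only gene called there was Psmd11, on 1 to 3 reads in each FT library.

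The next genes by p did not pass. Psmb3, a beta-ring subunit, had a log2 difference of 2.00 (SE 0.76, edgeR adjusted p = 0.0589). Its HA values ran from 0.492 to 27.9 CPM and its FT values from 0.00 to 11.1 CPM. Psme3, the PA28-gamma activator of the core in the nucleus, stood at 1.38 (SE 0.56, adjusted p = 0.0770) and Psmd3, a lid subunit, at 2.11 (SE 0.85, adjusted p = 0.0777). In the SCI only numbers by themselves Psme3 had 0.22 and Psmd3 0.68. Psmb3, Psme3 and Psmd3 were called by DESeq2, which called 7 of the 40, against 27.0% of all genes. The E2 gene Ube2z, which takes ubiquitin from the E1 enzyme Uba6, had 1.33 (SE 0.69, adjusted p = 0.176), the assembly chaperone Psmd9 1.44 (SE 0.74, adjusted p = 0.178) and the alpha-ring gene Psma2 0.86 (SE 0.45, adjusted p = 0.188), all by edgeR.

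Of the roles with more than 1 gene in both tables, the beta ring taken whole had the highest median log2 difference, at 1.15. Its 4 non-catalytic subunits had a median of 1.66 and its 3 constitutive catalytic subunits 0.87. All 8 beta-ring genes listed in both tables had a positive difference, beside 59.1% of all genes, and 3 were called higher, beside 12.7% of all genes. The catalytic subunits Psmb6 and Psmb7 had 0.46 (SE 0.69) and 0.87 (SE 0.66) beside Psmb5. Of the HA reads of Psmb6, 475 fell on a transcript with a retained intron and 572 on the protein-coding one. The immunoproteasome subunit Psmb10 had 0.55 (SE 0.67), on 0.545 to 27.0 CPM in HA and a median of 4.23 CPM in FT. The 3 alpha-ring genes had 0.24 to 0.86. Of the regulatory particle, the 3 ATPase genes had 0.46 to 1.01 and the 5 non-ATPase genes -1.14 to 2.11, the lowest being Psmd14, the deubiquitinase of the lid. Of the activators only Psme3 was positive: Psme4 (PA200) had -0.41 (SE 0.52) and Psme2b, a near copy of the unlisted Psme2 with which it could share reads, had -1.40 (SE 0.86). Apart from Psmb1, Psmb4 and Psmb5, no gene with these roles was called.

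Psm and Ube2 genes differed in where they lay. Of 23 Psm genes 19 had a positive difference (median 0.86, 3 called), against 10 of 17 Ube2 genes (median 0.07, 1 called) and 59.1% of all 4747 genes (median 0.30). The Ube2 values ran from -1.50 for Ube2ql1 to 1.33 for Ube2z. Over the other ways of scaling, filtering and testing, the Psm median stayed between 0.53 and 1.25, and the Ube2 median lay between -0.03 and 0.27, so its sign depended on the choice. These are descriptions of lists, with no test of a list.

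**Figure D2:**
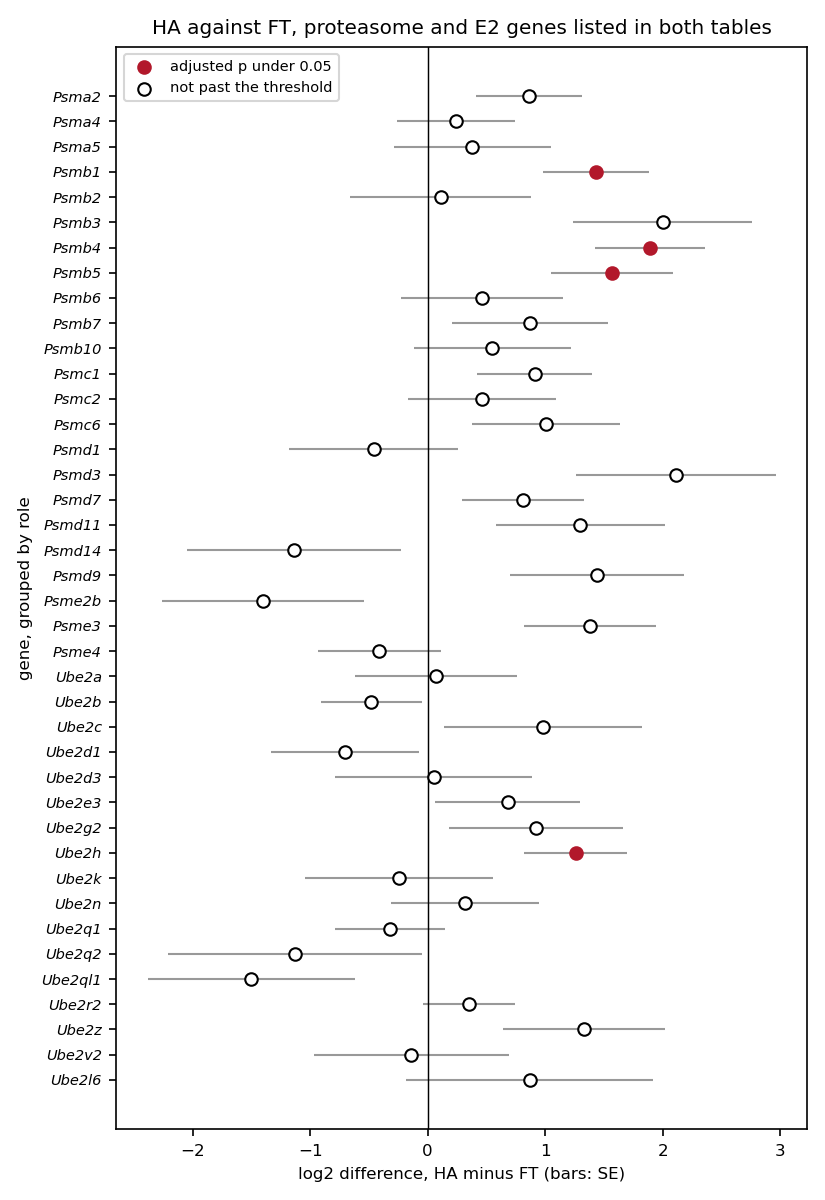
Log2 difference (HA minus FT) with its SE for the 40 genes listed in both tables, ordered by role; filled red points passed the adjusted threshold of 0.05. All 8 beta-ring genes from Psmb1 to Psmb10 lie right of 0, and the Ube2 genes lie on both sides.

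Other genes of the pathway were set against the same background, in which 19.2% of all genes were called and 31.7% had an unadjusted p under 0.05. The ubiquitin gene Ubb was higher in HA (log2 difference 1.59, SE 0.44, edgeR adjusted p = 0.00837), and it was the only 1 of 4 ubiquitin genes listed in both tables. Among 10 proteasome factors with other names, 1 was called: Pomp, which helps assemble the core, was higher (1.35, SE 0.39, edgeR adjusted p = 0.0115). Among 8 shuttle and unfolding factors, 2 were called higher, Vcp (the p97 segregase; 1.54, SE 0.43) and Ubxn4 (its partner at the endoplasmic reticulum; 1.20, SE 0.42). Of 11 core genes of cullin ligases, Cand1, which exchanges their substrate receptors, was higher (1.41, SE 0.50). Of 27 deubiquitinase-family genes 2 were higher, Usp53 (2.49) and Usp4 (1.73), and 2 lower, Usp48 (-3.89) and Eif3f (-1.80). None of 3 E1 genes, 11 HECT and RBR ligases or 5 SUMO, NEDD8 and UFM1 genes was called, with unadjusted p under 0.05 in 0, 3 and 1 of them. The largest E1 difference was 0.98 (SE 0.82), for Sae1, a subunit of the SUMO E1.

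Cell type markers moved with the same contrast. Of the astrocyte markers 7 of 9 were higher in HA, and their summed level was 3506 to 8565 CPM in HA against 193 to 1763 CPM in FT. Of the microglia and macrophage markers 9 of 10 were lower (26.1 to 942 CPM in HA, 84.6 to 7635 CPM in FT), and of the neuron markers 5 of 7 (34.1 to 277 CPM in HA, 279 to 1415 CPM in FT). All 6 oligodendrocyte progenitor markers were higher in HA (287 to 861 CPM in HA, 21.8 to 148 CPM in FT), as were 4 of 7 oligodendrocyte markers (849 to 2300 CPM in HA, 115 to 1059 CPM in FT). Of the endothelial, pericyte and fibroblast markers 1 of 3 was lower (4.43 to 71.4 CPM in HA, 4.23 to 78.5 CPM in FT), and no marker of other leukocytes was listed. Their part in the differences of the proteasome and E2 genes was not tested.

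Within HA, no proteasome or E2 gene passed the threshold in any of the 3 comparisons of treatments, which share 1 fit to 10 libraries and 6654 genes. Of the 68 genes 60 were tested. A gene that was not called is not thereby shown to be unchanged. Summed counts of each family are given as a description, with no test, and lean on the few genes with most reads: in growth factor number 1732, Psmb1 had 1859 and Psmd7 1272 of 7025 Psm reads. Psm genes took 0.315% ± 0.0678 of counts outside ribosomal RNA loci with growth factors (SD, n = 3), 0.283% ± 0.00850 with hydrogel CT (n = 3) and 0.146% ± 0.0585 in SCI only (n = 4). Ube2 genes took 0.106% ± 0.0516, 0.236% ± 0.0268 and 0.0776% ± 0.0183 in the same groups. Psm shares of growth factor and hydrogel CT libraries overlapped and both lay above every SCI only library, whose highest was 0.212%. The shares are not scaled as the CPM of the tests are. In CPM summed over the Psm genes, all growth factor libraries lay above all hydrogel CT libraries, which stood close above SCI only. Ube2 shares of hydrogel CT libraries, from 0.220 to 0.267%, lay above all others in HA. This order did not hold in CPM summed over the Ube2 genes, where growth factor number 1732 lay above all hydrogel CT libraries. Growth factor and SCI only libraries overlapped, at 0.0723 to 0.165% and 0.0672 to 0.105%.

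Set against each other within a library, which needs no scaling, Psm counts were 4.11, 3.23 and 2.36 times Ube2 counts with growth factors, 1.27, 1.33 and 1.03 times with hydrogel CT and 2.02, 1.67, 2.53 and 1.23 times in SCI only. Growth factor libraries were above all hydrogel CT libraries, and SCI only libraries overlapped both. In FT the ratio was 0.167 to 0.928 with growth factors, 0.523 to 0.965 with hydrogel CT and 1.07 to 1.80 in SCI only. The FT ratios use the 23 Psm and 17 Ube2 genes listed for FT and the HA ratios all 43 and 25, so their levels do not compare across fractions. The lowest, 0.167, is 2 Psm reads over 12 Ube2 reads in number 1645. FT libraries of the growth factor and hydrogel CT groups thus overlapped.

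**Figure D3:**
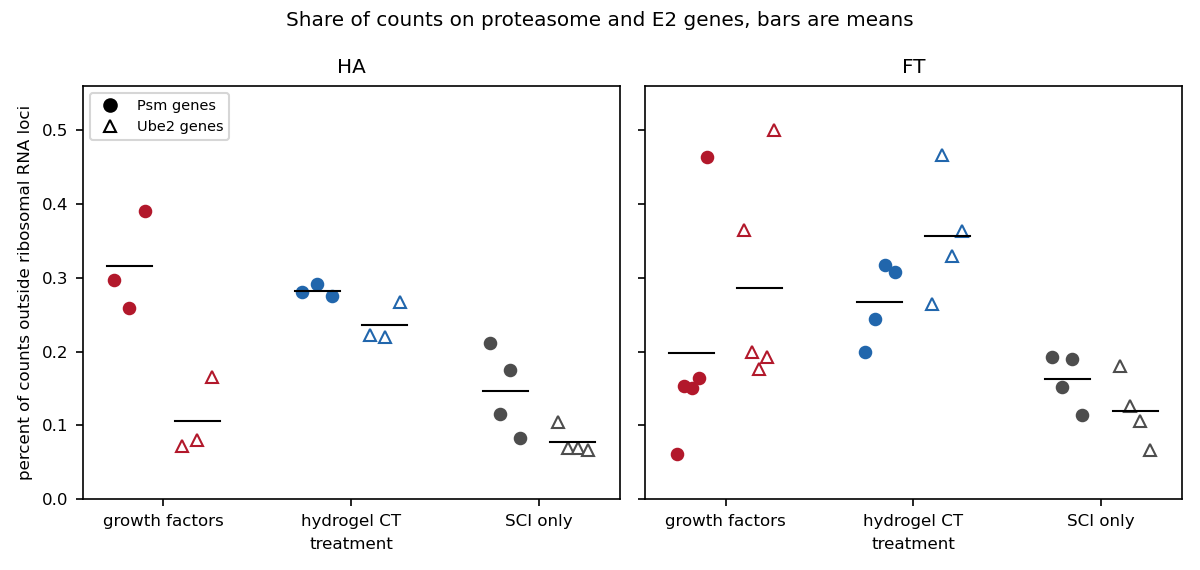
Percent of counts outside ribosomal RNA loci on the Psm genes (filled circles) and the Ube2 genes (open triangles) in each HA (left) and FT (right) library by treatment, with group means as bars. In HA the Ube2 share is highest in hydrogel CT, at 0.220 to 0.267%, while the Psm shares of growth factor and hydrogel CT libraries overlap. Summed CPM give another order in HA for both families.

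With growth factors against hydrogel CT in HA, none of 60 genes was called, against 0.0902% of all genes, and 10 of the 60 had an unadjusted p under 0.05, against 13.3% of all genes. Psmd7, a lid subunit that pairs with Psmd14 (chromosome 8, 107580381 to 107588464, minus strand), had 49.8, 55.2 and 111 CPM with growth factors, against 7.28, 19.6 and 18.4 CPM with hydrogel CT. All growth factor libraries were above all hydrogel CT libraries, with a log2 difference of 2.23 (SE 0.70, edgeR adjusted p = 0.250). Psmd13, another lid subunit, had 77.2, 7.36 and 1.92 CPM with growth factors and 0.887, 3.91 and 1.39 CPM with hydrogel CT. Its log2 difference of 3.79 (SE 1.13, edgeR adjusted p = 0.250) was 1.04 without number 1685, and it is listed in HA only. Psmd13 lies over Sirt3 on the other strand, and counting by strand is not given in the sources used here. DESeq2 called Psmd13 and no other gene of the 68, against 3.89% of all genes.

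Psmd11, a lid subunit, had 5.31, 175 and 25.9 CPM with growth factors in numbers 1685, 1687 and 1732, against 8.44, 8.18 and 9.33 CPM with hydrogel CT. The growth factor libraries lay on both sides of the hydrogel CT libraries, with a log2 difference of 2.94 (SE 0.96, edgeR adjusted p = 0.250) that was 0.81 without number 1687. Ube2b, the homologue of yeast Rad6, had 5.31, 1.58 and 12.9 CPM with growth factors, against 15.9, 54.6 and 39.2 CPM with hydrogel CT. All its growth factor values lay below all hydrogel CT values, with a log2 difference of -2.48 (SE 0.81, edgeR adjusted p = 0.250). Ube2l6, the E2 for ISG15, ran the other way from Ube2b, with 6.17, 8.15 and 2.18 CPM against 0.0682, 0.937 and 0.0128 CPM and a log2 difference of 3.97 (SE 1.51, edgeR adjusted p = 0.273).

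Across the 60 genes, 27 of 38 Psm genes had a positive difference (median 0.76) and 7 of 22 Ube2 genes (median -1.36), beside 46.7% of all genes (median -0.14). Both signs held over 6 other settings, with Psm medians of 0.46 to 0.98 and Ube2 medians of -1.36 to -0.47, and DESeq2 size factors moved the median of all genes to 0.08. Without the growth factor library of number 1732, however, the Psm median was -0.20, with 19 of 39 positive and a median over all genes of -0.61. The groups did not overlap in 12 of 60 genes, against 18.4% of all genes. Among the catalytic genes, Psmb5 had 0.03 (SE 0.87), Psmb6 -1.70 (SE 1.07), Psmb7 -0.96 (SE 0.96), Psmb8 -0.68 (SE 1.34) and Psmb10 0.83 (SE 1.09) on the log2 scale.

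With hydrogel CT against SCI only in HA, none of 60 genes was called, against 0.195% of all genes, and 8 had an unadjusted p under 0.05, against 12.7% of all genes. The alpha-ring gene Psma3 had 1.27, 1.17 and 0.409 CPM with hydrogel CT and no count in any SCI only library. Taken against a floor of 3 counts in each SCI only library, it was at least 1.93-fold higher (edgeR adjusted p = 0.183), and behind it stood 56, 56 and 32 reads. Psma3 passed the filter only through these hydrogel CT libraries, the deepest in HA. The fold and p are therefore not independent of the filter, and depth differs between the groups. Ube2l6 had 0.0682, 0.937 and 0.0128 CPM with hydrogel CT, all below the 2.93, 1.16, 2.38 and 17.4 CPM of SCI only. Its log2 difference was -4.12 (SE 1.49, edgeR adjusted p = 0.270), which became -7.06 without hydrogel CT library 1759 and -2.69 without SCI only library 9935. DESeq2 called it alone among the 68, against 3.61% of all genes.

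Ube2b, at 15.9, 54.6 and 39.2 CPM with hydrogel CT, was above all SCI only libraries at 8.57, 12.2, 8.83 and 11.0 CPM. Its log2 difference was 1.84 (SE 0.72, edgeR adjusted p = 0.302). Ube2d1, an E2 that serves many ligases, had 9.01, 5.74 and 46.3 CPM against 8.72, 1.36, 1.70 and 0.827 CPM, overlapping only through the first SCI only library. Its log2 difference was 2.64 (SE 1.04, edgeR adjusted p = 0.302), and 1.18 without hydrogel CT library 1762. Here 16 of 22 Ube2 genes were positive (median 1.10) and 24 of 38 Psm genes (median 0.44), beside 56.7% of all genes (median 0.27), and the groups did not overlap in 13 of 60 genes, against 19.0% of all genes. The NEDD8 E2 gene Ube2m had 0.0227, 0.187 and 0.294 CPM with hydrogel CT and no count in SCI only, and no fold is given since its mean lay under the floor of 3 counts.

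With growth factors against SCI only in HA, none of 60 genes was called, against 0.436% of all genes, and 12 had an unadjusted p under 0.05, against 21.0% of all genes. The gene nearest the threshold was Psmd7, at 49.8, 55.2 and 111 CPM with growth factors and 14.9, 11.0, 8.38 and 3.31 CPM in SCI only. The groups did not overlap, and the log2 difference was 2.89 (SE 0.65, edgeR adjusted p = 0.0521). DESeq2 called 7 of the 68 genes, against 9.70% of all genes. Psmd7 passed under DESeq2 (adjusted p = 0.00155), with DESeq2 size factors, with no filter, with a minimum of 5 CPM, with ribosomal RNA loci left out and without growth factor library 1687, and its adjusted p ran from 0.00155 to 0.167 over all alternatives. It was also among 5 rows called in the authors' deposited table for this comparison, where its log2 fold change was 2.94 (FDR 0.00642).

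Ube2e3, an E2 of the nucleus and cytoplasm, had 17.3, 0.263 and 129 CPM with growth factors in numbers 1685, 1687 and 1732, against 3.66, 1.16, 1.36 and 0.00 CPM in SCI only. The library of number 1687 lay among the SCI only values, and the log2 difference was 4.86 (SE 1.25, edgeR adjusted p = 0.0793), and 2.48 without number 1732. Psmd11 had 5.31, 175 and 25.9 CPM against 6.89, 3.88, 13 and 4.14 CPM, a log2 difference of 3.23 (SE 0.87, edgeR adjusted p = 0.0874). Without the library of 1685 or of 1732 it was called, and without 1687, its highest, it was not, at 1.16. The alpha-ring gene Psma1 had 0.183, 40.5 and 5.49 CPM against 2.05, 0.194, 0.566 and 0.00 CPM, a log2 difference of 4.25 (SE 1.38, edgeR adjusted p = 0.126) that was 1.88 without number 1687.

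All 8 tested non-ATPase subunits of the regulatory particle had a positive difference, from 0.99 to 4.08 with a median of 2.62, and all 7 alpha-ring genes, from 0.41 to 4.25 with a median of 1.93. The beta ring did not, with 4 of 9 positive and a median of -0.18. Of the alpha-ring genes, Psma3 had 2, 0 and 0 reads with growth factors and none in SCI only. Of the non-ATPase genes under the filter, Psmd4 had 0.183, 0.526 and 0.0872 CPM with growth factors and 0.388 to 1.10 CPM in SCI only. Psmd2, also under the filter, was higher with growth factors through library 1685 alone. The immunoproteasome genes Psmb8 and Psmb10 had -1.19 (SE 1.30) and -0.97 (SE 1.04), and the constitutive Psmb5, Psmb6 and Psmb7 had 0.68 (SE 0.81), -1.08 (SE 1.01) and 0.30 (SE 0.90). In all, 31 of 38 Psm genes were positive (median 1.08) against 7 of 22 Ube2 genes (median -0.28), beside 52.5% of all genes (median 0.12). The Psm median stayed between 0.61 and 1.34 over every alternative, left-out libraries included, and the Ube2 median between -0.56 and -0.09. The count of positive Psm genes moved more, to 23 of 39 without growth factor library 1685 and 26 of 39 without 1732. Medians over all genes were then -0.37 and -0.24. Groups did not overlap in 4 of 60 genes, against 14.1% of all genes. The 3 comparisons share libraries and are not independent of each other.

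**Figure D4:**
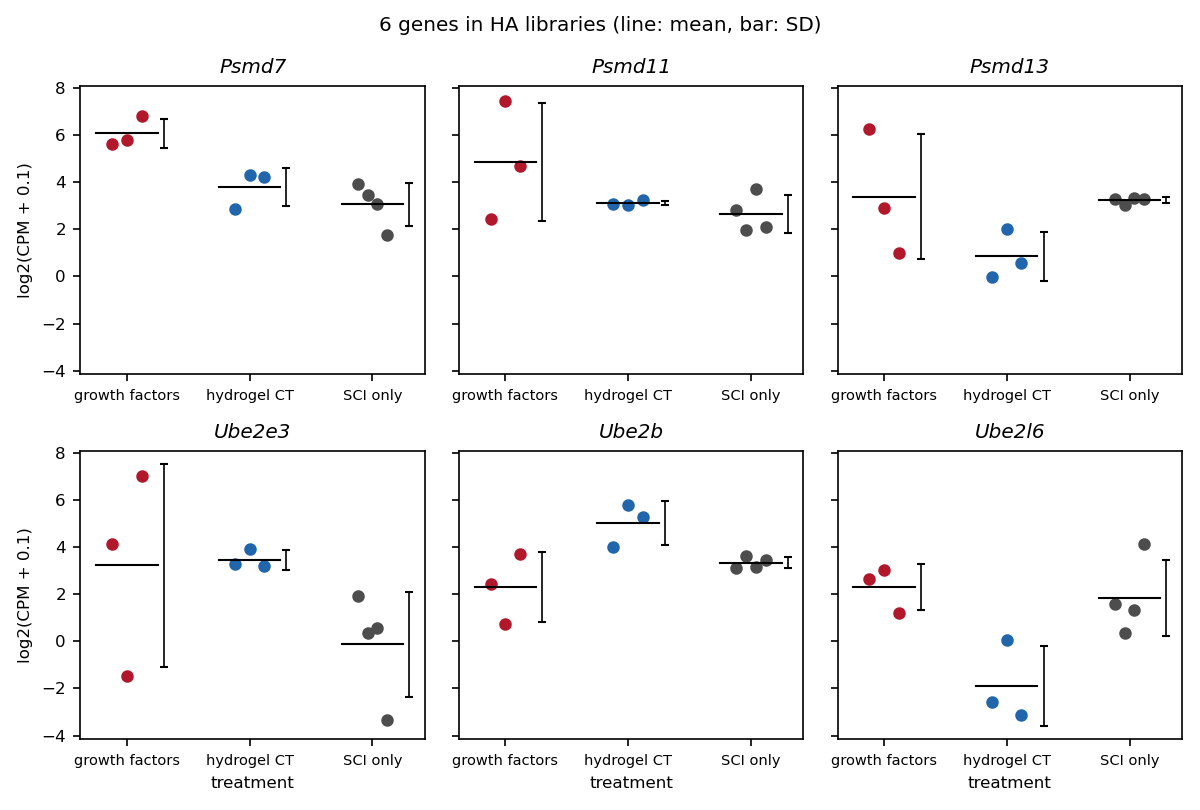
Levels of 6 genes as log2(CPM + 0.1) in HA libraries by treatment, with the mean as a line and the SD as a bar beside it. Psmd7 is higher in all 3 growth factor libraries than in any other library, Ube2b is highest and Ube2l6 lowest in hydrogel CT, and the high means of Psmd11, Psmd13 and Ube2e3 with growth factors rest on 1 or 2 libraries.

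Marker levels also differed among the HA groups. Summed microglia and macrophage markers (10 of 12 listed) were 67.0 to 90.3 CPM with growth factors, 14.7 to 102 CPM with hydrogel CT and 60.8 to 509 CPM in SCI only. Summed oligodendrocyte progenitor markers (6 of 7 listed) were 311 to 459 CPM with growth factors, 162 to 255 CPM with hydrogel CT and 335 to 450 CPM in SCI only. Summed astrocyte markers (10 of 10 listed) were 3102 to 3785 CPM with growth factors, 2324 to 4826 CPM with hydrogel CT and 1733 to 2647 CPM in SCI only, so the growth factor libraries were above the SCI only libraries. The part of these markers, and of depth, in the shares of the proteasome and E2 genes was not tested.

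Libraries of 1 group differed widely gene by gene. The highest over the lowest library had a median of 7.73 among 49 genes seen in all 3 growth factor libraries, 3.20 among 66 genes in hydrogel CT and 4.43 among 43 genes in SCI only. Over the other genes the medians were 6.69, 4.23 and 4.71. The widest spread was that of Ube2e3 with growth factors, at 489 times, and among the narrowest were Psmb1 in SCI only (1.10 times) and Psmd11 in hydrogel CT (1.14 times). Psmd11 thus had even values in hydrogel CT and values from 5.31 to 175 CPM with growth factors.

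**Figure D5:**
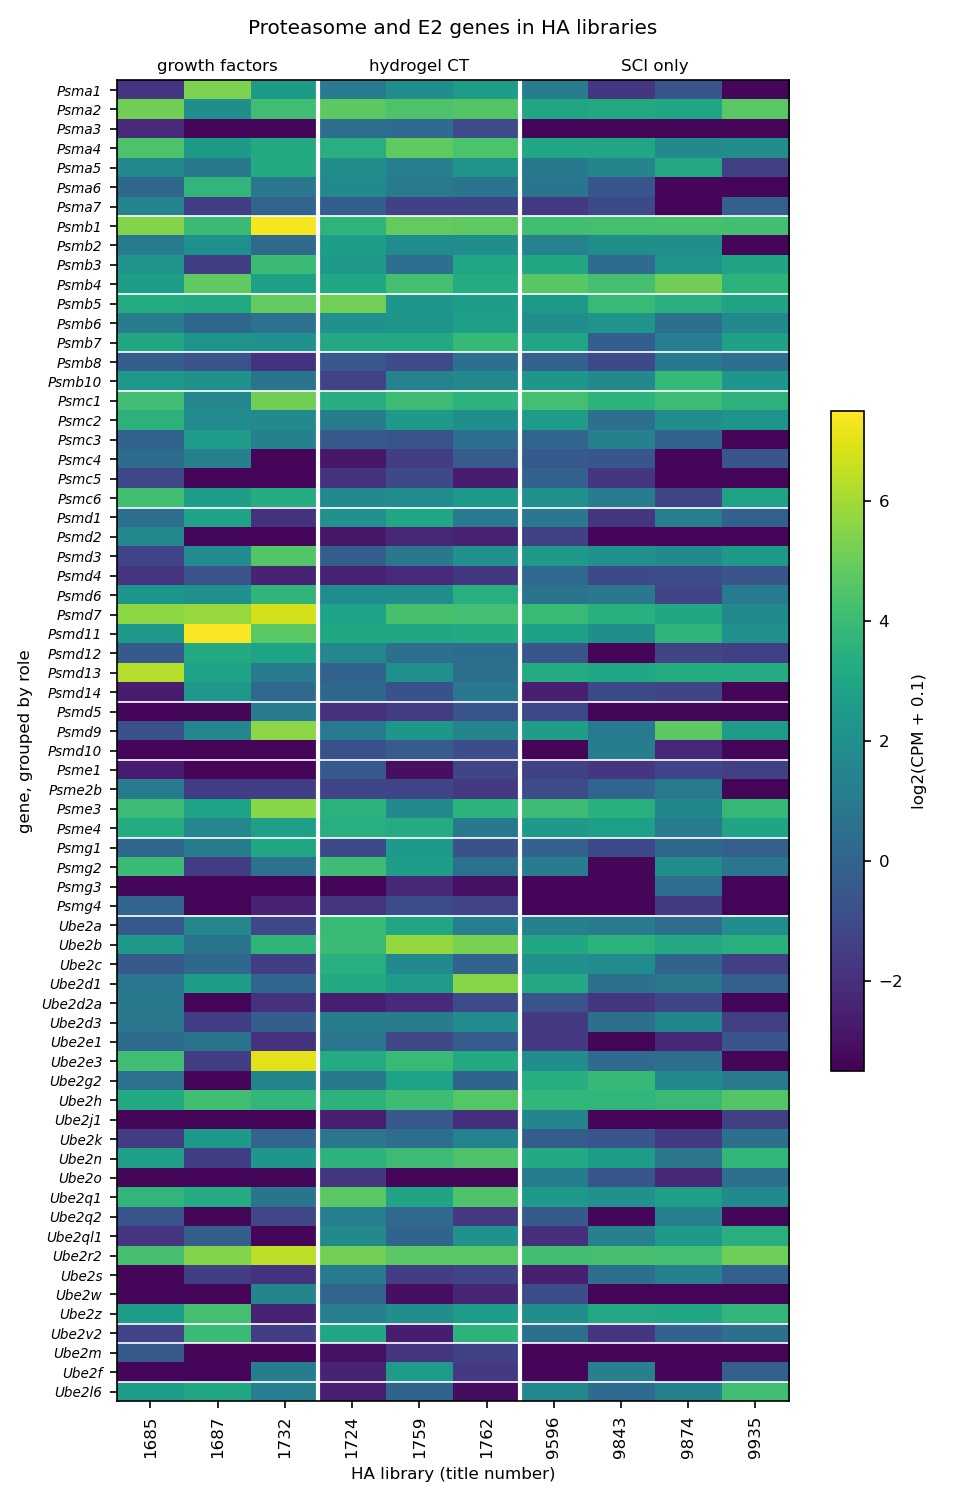
Level of the 68 genes (rows, grouped by role) as log2(CPM + 0.1) in the 10 HA libraries (columns), with growth factors at left, hydrogel CT in the middle and SCI only at right. Hydrogel CT libraries have fewer of the darkest cells, with 67 of 68 genes seen in each against 50 to 62 in SCI only, and single bright cells mark Psmd11 in number 1687 and Ube2e3 and Psmb1 in number 1732.

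Levels between genes were compared per kilobase of the counted transcript. For 5 of the 68 genes, Psmc3, Psmc5, Psmd2, Psme1 and Ube2w, no counted transcript is annotated as protein-coding in GENCODE, so their counts do not stand for the coding mRNA and their levels per kb are not given. In hydrogel CT, the deepest HA libraries, Ube2b was highest at 20.4 ± 10.9 CPM per kb (SD, n = 3), followed by Psmb5 at 17.1 ± 19.2, Psma4 at 17.0 ± 7.36, Ube2d1 at 14.2 ± 15.8, Psmb1 at 13 ± 5.09 and Psmb4 at 11.2 ± 4.79. These neighbours did not differ beyond their spread. With growth factors Psmd7 (45.5 ± 21.4 CPM per kb) and Psmb1 (42.2 ± 44.1) stood above Ube2b (3.68 ± 3.22). In SCI only Psmb4 had 20.4 ± 7.85 CPM per kb and Psmb1 10.5 ± 0.530 (n = 4). At the low end of hydrogel CT was Ube2o, a hybrid of an E2 and an E3, at 0.0117 ± 0.0202 CPM per kb.

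In FT only 6 of the 40 listed genes passed the filter and were tested, among 610 genes: Psma4, Psmb1, Ube2a, Ube2b, Ube2q1 and Ube2r2. The filter takes counts relative to each library's total, ribosomal RNA reads included. It did not follow read number: Ube2a passed on 53 FT reads, and Psmd7 with 238 did not. With hydrogel CT against SCI only, 1 of the 6 was called, higher, against 3.11% of all genes called and 0.328% called higher. Ube2a, the other homologue of yeast Rad6 (chromosome X, 36873900 to 36884222, plus strand), had 97.8, 56.8, 26.9 and 39.8 CPM with hydrogel CT, against 2.26, 1.65, 6.52 and 0.00 CPM in SCI only. All hydrogel CT libraries lay above all SCI only libraries, as in 18.9% of all genes either way, on 3, 9, 8 and 4 reads against 4, 1, 4 and 0. The log2 difference was 3.29 (SE 0.89, edgeR adjusted p = 0.0395). Ube2a passed the filter only through hydrogel CT libraries 1683, 1724 and 1762 and growth factor library 1732. It was thus admitted mainly through the group where it was high, and the call is not independent of the filter. C330007P06Rik overlaps Ube2a on the other strand. The call was lost without any 1 of the 8 libraries compared, with adjusted p from 0.128 to 0.237. Without growth factor library 1645 or 1732, or with ribosomal RNA loci left out, Ube2a did not pass the filter and was not tested. It had 0 reads in library 1645, so without that library the limit moved and not its reads. Summed microglia and macrophage markers in FT (10 of 12 listed) were 261 to 4677 CPM with hydrogel CT and 5952 to 13516 CPM in SCI only, and their part in the Ube2a difference was not tested.

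Ube2q1 had 97.8, 158, 151 and 29.9 CPM with hydrogel CT in FT and 6.77, 14.9, 27.7 and 32.4 CPM in SCI only, overlapping at 1 library, with a log2 difference of 1.95 (SE 0.73, edgeR adjusted p = 0.153). Psma4 had 1.96 (SE 0.88, adjusted p = 0.230), which was 0.63 without hydrogel CT library 1759, Psmb1 -0.43 (SE 0.71, adjusted p = 0.817) and Ube2b -0.22 (SE 0.74, adjusted p = 0.933), all by edgeR. All 6 genes passed the filter only through libraries of the hydrogel groups, where Ube2q1 and Psma4 were high. The differences of Ube2q1 and Psma4 from SCI only are therefore not independent of the filter. With growth factors against hydrogel CT none of the 6 was called, against 0 of all 610 genes, of which 3.77%, and none of the 6, had an unadjusted p under 0.05. The smallest p values were those of Ube2q1 (log2 difference -1.29, SE 0.73), Ube2a (-1.46, SE 0.85), Psma4 (-1.23, SE 0.86) and Ube2r2 (-0.17, SE 0.63), with edgeR adjusted p of 0.956 to 0.973. With growth factors against SCI only none of the 6 was called, against 3.77% of all genes. Ube2a stood at 1.84 (SE 0.91, adjusted p = 0.271), Ube2q1 at 0.67 (SE 0.75), Psma4 at 0.73 (SE 0.90) and Psmb1 at -0.49 (SE 0.67), by edgeR.

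In the authors' deposited table, which tests transcripts, 5 of 75 rows of these genes had an FDR under 0.05 for growth factors against SCI only in HA, against 3.97% of all rows, all positive: Psmd7, Psmd11 (3.21), Ube2e3 (4.95), Psma1 (4.22) and Psmd12 (4.07). No row of them passed in the authors' deposited table for hydrogel CT against SCI only in HA, against 1.44% of all rows, or between the depots in HA, against 0.597%. In FT the authors' deposited table called Psmd11 (-3.08), Psmb10 (-3.41) and Psmd3 (-4.93) for growth factors against SCI only (9.08% of all rows called), and Psmd11 (-2.78) and Ube2a (3.35) for hydrogel CT against SCI only (8.20% of all rows), as log2 fold changes. Between the depots in FT the authors' deposited table called 0 rows. Psmd11 thus has opposite signs in HA and FT there for growth factors against SCI only. The growth factor FT libraries held only 0, 1, 1, 1 and 3 reads of it, and it did not pass the FT filter used here.

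The difference between fractions was itself compared among treatments. None of 40 genes passed the test of fraction by treatment (edgeR quasi-likelihood test on 2 coefficients), and 0% of all 4747 genes did, while 12.1% of all genes and 5 of the 40 had an unadjusted p under 0.05. The smallest p among the 40 was that of Psmd11 (edgeR adjusted p = 0.167), which DESeq2 called alone, against 1.00% of all genes. On the joint scale of both fractions, Psmd11 in HA had 9.22, 327 and 45.5 CPM with growth factors in numbers 1685, 1687 and 1732, against 4.36, 7.09 and 1.85 CPM in FT. With hydrogel CT it had 14.5, 14.5 and 16.6 CPM in HA in numbers 1724, 1759 and 1762, against 6.90, 4.23 and 4.23 CPM in FT, so that HA was above FT in every number of both hydrogel groups. In SCI only the FT values of Psmd11, from 6.02 to 35.6 CPM, lay around the HA values of 7.84 to 24.1 CPM. Behind its FT values stood 1, 1 and 3 reads with growth factors and 2, 2 and 1 with hydrogel CT. In SCI only they stood on 19, 23, 40 and 15 reads. The other 4 were Ube2l6 (edgeR adjusted p = 0.267), Psmd7 (0.270), Ube2ql1 (0.308) and Psmd3 (0.389).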

How the data were processed

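RNA-seq libraries of 23 spinal cord samples in 6 groups were used. The authors deposited 1 table of raw counts per transcript for each fraction, with log2 fold changes and p-values of their own comparisons beside them, per the file headers. CASAVA 1.8.2, edgeR and mm10 are named in the submitters' processing notes. Which aligner and counter were run, and whether strand was used, is not given in the sources used here. The tables hold 45 further columns of per-sample values that match no sample and were not used. No listed row had a total under 10 counts, so genes with fewer reads are not in the tables. Rows with no gene symbol, 136 for HA and 35 for FT, did not enter library sizes or tests. They held 0.00272 to 0.101% of HA counts and 0.00424 to 0.319% of FT counts.

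Counts were summed per symbol, scaled by TMM and tested with edgeR 4.0.16 (R 4.3.3, limma 3.58.1), after filterByExpr by group with a minimum count of 10. P-values are two-sided and adjusted over all genes tested, and the SE is the log2 difference divided by the root of F. CPM use effective library sizes of the libraries in that fit, so HA levels are on another scale in HA against FT than within HA. The threshold is 0.05. Intervals and floors (3 counts) cover counting error only. Alternatives were DESeq2 1.42.0, its size factors, other filters, leaving out ribosomal RNA loci, only the 2 groups compared, each library left out and a replicate block. Fits to the SCI only numbers alone, to the hydrogel numbers alone and to the transcripts listed in both tables were added after seeing the data. The script was tested on simulated data. The genes and all lists were chosen with earlier results of these data known. Named were all genes past the threshold, the 6 (HA against FT) or 4 (within a fraction) with the next smallest p, the catalytic and modifier genes, and up to 3 genes of each pathway list.

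The same title numbers occur in both fractions, and the design text takes both fractions from the same tissue, so the numbers pair the libraries. Deviations from group means of same-numbered libraries correlated at 0.00254 to 0.0863 over 10 pairs. Each HA library was also compared with the 3 or 4 paired FT libraries of its own treatment only. Among these, 8 of 10 HA libraries were nearest the FT library of their number. Libraries of a group differed beyond counting noise (chi-square per degree of freedom 4.61 to 267), so none was counted as a copy. Gene positions and lengths are from GENCODE M21 (GRCm38) and start regions from RefSeq (GRCm38.p6). Tables and plots were made with Python 3.11.15, pandas 2.3.3 and matplotlib 3.10.9.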

Additional observations from a re-analysis of the deposited data

Results flagged for a closer look

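Of 24 groups of 4 or 5 libraries examined for single libraries that stand apart, 2 held one, and chance alone marks about 1 in 20 groups. Ube2d1 had 8.72 CPM in SCI only HA library 9596, against 0.827 to 1.70 CPM in the other 3 SCI only HA libraries. Ube2l6 had 17.4 CPM in SCI only HA library 9935, against 1.16 to 2.93 CPM in the other 3.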

How the results depend on the processing

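Of 220 values under other settings 190 kept their direction and side of the threshold, 11 lost and 15 gained a call or count and 4 changed sign. Of 373 values with a library left out 344 held, 19 lost, 8 gained and 2 changed sign. For HA against FT the 4 genes called became 7 with DESeq2, 1 with a minimum of 5 CPM, 1 in the SCI only numbers alone, 1 in the hydrogel numbers alone and 2 to 4 with a number left out. With the replicate block 3 genes were called, Ube2h being lost, and the block changed no other call. Within HA the 0 genes called for growth factors against hydrogel CT and for hydrogel CT against SCI only became 1 each with DESeq2. For growth factors against SCI only the 0 became 7 with DESeq2, 1 with DESeq2 size factors, 2 with no filter, 1 with a minimum of 5 CPM, 1 with ribosomal RNA loci left out, and 0 to 3 with a library left out. In FT the 1 gene of hydrogel CT against SCI only became 2 with a minimum of 5 CPM, 0 with ribosomal RNA loci left out, 4 with only the 2 groups in the fit and 0 to 1 with a library left out. The 0 of growth factors against SCI only became 3 with a minimum of 5 CPM, and the 0 of fraction by treatment became 1 with DESeq2. Signs changed for uncalled FT genes: Ube2r2 in growth factors against hydrogel CT (-0.17) was 0.01 with only the 2 groups and -0.48 to 0.22 with a library left out, and Ube2b in hydrogel CT against SCI only (-0.22) was 0.17 with DESeq2, 0.12 with ribosomal RNA loci left out, 0.18 with only the 2 groups and -0.82 to 0.02 with a library left out. The cause of these changes was not tested. Fits that leave 1 number out pool the spread over all groups. The filter limited the genes tested in FT to 6 of 40.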
